A study of Mus musculus with 12 samples.

Results

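The mRNA levels of 7 genes of cholesterol synthesis, namely the regulator Srebf2 and the enzymes Hmgcs1, Idi1, Fdps, Sqle, Lss and Cyp51, were examined in mouse liver. The genes were chosen by symbol, through the RefSeq accession of each array probe. No value entered that rule, but the choice was made with earlier results of these data known. All 7 were measured, by 8 probes, among 16916 genes tested in all. Livers came from 6 Floxed mice (Phgdh flox/flox, no Cre) and 6 LKO littermates (Alb +/Cre; Phgdh flox/flox), all C57BL/6 males aged 30 weeks, on chow with 20% casein given without restriction. Both groups therefore carried the floxed Phgdh allele on both chromosomes, and LKO mice additionally carried the Alb-Cre transgene, which is driven by the albumin promoter and acts in hepatocytes while other liver cells keep the gene. Phgdh, the first enzyme of serine synthesis from a glycolytic intermediate, is the deleted gene. Each liver was hybridized to 1 single-color Agilent array, and values are log2 intensities after quantile normalization, so that a difference of 1 is a doubling. Littermates without Cre cannot separate Phgdh loss from the presence of Cre.

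Cholesterol is built from acetyl-CoA. Hmgcs1 makes HMG-CoA, which is reduced to mevalonate, Idi1 and Fdps turn the activated mevalonate units into farnesyl diphosphate, Sqle oxidizes squalene, Lss closes the ring to lanosterol, and Cyp51 removes a methyl group from lanosterol. Srebf2 encodes Srebp2, a membrane-bound transcription factor that is carried from the endoplasmic reticulum by Scap and cut free in the Golgi when sterols are low, and which then activates the genes of this pathway. Insig proteins hold it back when sterols are plentiful. Its activity therefore depends on cleavage and need not follow its mRNA.

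Because these genes share a regulator, the 250 bases before the annotated start of each gene are given for those with an entry in the RefSeq promoter table (GRCm38.p6), which were 5 of the 7. Sqle and Fdps had no entry. The windows lie at chr15:82147019-82147268 on the plus strand for Srebf2, chr13:119690101-119690350 on the plus strand for Hmgcs1, chr13:8885356-8885605 on the plus strand for Idi1, chr10:76531355-76531604 on the plus strand for Lss and chr5:4104698-4104947 on the minus strand for Cyp51. Each is written 5' to 3' along its gene, and capitals mark matches on either strand to TCACNCCAC (a core of the sterol regulatory element), CCAAT (the NF-Y box) or GGGCGG (the GC box bound by Sp1). No match overlapped another.
Srebf2: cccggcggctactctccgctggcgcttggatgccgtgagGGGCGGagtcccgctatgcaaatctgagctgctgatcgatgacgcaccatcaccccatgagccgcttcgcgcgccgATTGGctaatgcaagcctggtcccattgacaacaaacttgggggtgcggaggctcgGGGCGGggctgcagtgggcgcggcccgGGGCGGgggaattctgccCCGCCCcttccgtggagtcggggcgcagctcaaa
Hmgcs1: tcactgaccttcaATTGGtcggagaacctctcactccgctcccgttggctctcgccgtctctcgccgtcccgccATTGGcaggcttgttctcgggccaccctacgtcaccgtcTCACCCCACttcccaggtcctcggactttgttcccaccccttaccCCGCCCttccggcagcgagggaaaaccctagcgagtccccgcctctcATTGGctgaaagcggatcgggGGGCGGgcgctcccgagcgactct
Idi1: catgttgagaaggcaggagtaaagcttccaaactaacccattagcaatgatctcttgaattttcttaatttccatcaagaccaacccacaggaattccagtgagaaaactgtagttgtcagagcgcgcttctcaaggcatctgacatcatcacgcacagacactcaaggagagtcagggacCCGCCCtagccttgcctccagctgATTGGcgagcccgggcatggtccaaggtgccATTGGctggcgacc
Lss: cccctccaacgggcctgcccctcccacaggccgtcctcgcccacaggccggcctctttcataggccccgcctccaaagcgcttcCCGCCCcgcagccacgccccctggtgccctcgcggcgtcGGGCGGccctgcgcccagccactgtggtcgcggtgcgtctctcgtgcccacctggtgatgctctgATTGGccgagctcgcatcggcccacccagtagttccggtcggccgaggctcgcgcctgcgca
Cyp51: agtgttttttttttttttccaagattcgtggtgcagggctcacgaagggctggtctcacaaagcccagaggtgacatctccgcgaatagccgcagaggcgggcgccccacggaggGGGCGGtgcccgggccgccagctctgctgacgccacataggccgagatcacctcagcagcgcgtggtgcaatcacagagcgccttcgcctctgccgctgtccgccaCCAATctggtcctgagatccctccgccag
The sterol regulatory core was found in Hmgcs1 alone among these 5, beginning 137 bases before the start, and in 1.24% of all 32851 promoter windows. CCAAT and GGGCGG each occurred in 5 of 5 windows, searched over 250 bases before and 50 after the start, against 37.4% and 35.7% of all windows. Both occurred together in 12.8% of all windows. Among 16 windows of 13 further sterol enzymes, 11 held CCAAT, 13 held GGGCGG and 0 held the sterol regulatory core. A match is a run of letters and not evidence of binding. Only exact matches to these letters were sought. A window without the sterol regulatory core may therefore hold a variant of it, which was not examined.

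The arrays lay on 3 slides. Slide 1 carried 4 Floxed livers (1 to 4) and slide 3 carried 4 LKO livers (3 to 6), while both genotypes met only on slide 2, with Floxed 5, Floxed 6, LKO 1 and LKO 2. Between 21614 and 24252 probes per array were well above background, and the number of arrays limits the precision. Phgdh ranged from 4.81 to 5.50 in Floxed and from 4.23 to 5.30 in LKO livers, a difference of -0.48 (SE 0.18) that passed the unadjusted limma criterion used below (exact permutation p = 0.0346, limma adjusted p = 0.451). LKO mice 1 and 2 lay within the Floxed range, and whether the probe lies inside the deleted part is not known here. On slide 2 alone, where the LKO mice are those 2, the Phgdh difference was -0.05. In these bulk livers, fewer cells of a type and less RNA per cell cannot be told apart. Of 12 listed hepatocyte markers 11 had a probe, and all 11 were well above background on every array.

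No difference between Floxed and LKO livers was detected for any of the 7 genes, each read by its brightest probe. For Srebf2 this depended on the choice of probe, as given below. At the study's criterion, an unadjusted limma p below 0.05, 0 of 7 were called, while 8.35% of all tested genes were (1413 of 16916, of which 0 passed the Benjamini-Hochberg adjustment, as against 1236 by the methods' t-test, 1 of them after adjustment). Of the 7, 5 were higher and 2 lower in LKO livers, with a median difference of 0.21 beside -0.0035 over all genes. The enzymes varied together over the mice, as given below, so these directions are not independent. The groups overlapped for all 7, and 0.296% of all genes did not overlap. The intervals were wide for most enzymes, so moderate differences in either direction remain possible, as the values below show.

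Srebf2, the regulator, ranged from 6.02 to 6.73 in Floxed livers (median 6.34) and from 5.66 to 6.67 in LKO livers (median 6.33). The groups lay on top of each other apart from LKO 6, the lowest of the 12. The difference was -0.09 (95% CI -0.45 to 0.28, limma, adjusted p = 0.972), or 0.941-fold with an interval from 0.730 to 1.21.

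A second Srebf2 probe, not the one representing the gene, gave another picture. It ranged from 5.55 to 6.90 in Floxed livers (median 6.14) and from 4.71 to 6.11 in LKO livers (median 5.60). Its 3 highest values were Floxed 1, 3 and 2, all on slide 1, and its lowest were LKO 5 and LKO 4, both on slide 3. The difference was -0.62 (SE 0.26), with an unadjusted limma p = 0.0314, an adjusted p = 0.518 and a two-sided exact permutation p = 0.0563. These tests did not pair the mice, and values with same-numbered mice as blocks are given in the last paragraph. Among all probes fitted, 8.54% had an unadjusted p below 0.05. On slide 2, the slide with both genotypes, the difference of this probe was 0.09. Its call was kept in 7 of 12 fits that left out 1 mouse, and lost without Floxed 1, 2 or 3 or LKO 4 or 5. Both probes are assigned to the same accession, yet their values over the 12 mice had a Pearson r of 0.05. When the probes of each gene were averaged, the Srebf2 difference was -0.35 and passed the unadjusted limma criterion (p = 0.0408), while exact permutation of genotype over these averages gave a two-sided p = 0.0606.

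Hmgcs1, the synthase that makes HMG-CoA, ranged from 13.29 to 15.34 in Floxed livers (median 14.28) and from 13.62 to 15.46 in LKO livers (median 14.77). High and low livers occurred in both genotypes. The difference was 0.35 (95% CI -0.47 to 1.17, limma, adjusted p = 0.941), or 1.28-fold with an interval from 0.723 to 2.25. It was the largest difference among the 6 enzymes.

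Idi1, the isomerase that makes the reactive isoprene unit, ranged from 11.73 to 13.32 in Floxed livers (median 12.06) and from 11.23 to 13.20 in LKO livers (median 12.48). Its difference was 0.09 (95% CI -0.59 to 0.76, limma, adjusted p = 0.980). Fdps, which joins these units into farnesyl diphosphate, ranged from 14.09 to 15.74 in Floxed livers (median 14.55) and from 13.59 to 15.98 in LKO livers (median 15.10). Its difference was 0.29 (95% CI -0.47 to 1.06, limma, adjusted p = 0.950). For both enzymes LKO 2 was the lowest of the 12 livers, and Floxed 6 and LKO 5 were the highest pair.

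Sqle, the squalene epoxidase and a rate-controlling step, ranged from 9.21 to 12.53 in Floxed livers (median 10.59) and from 9.00 to 12.31 in LKO livers (median 10.73). The span was similarly wide in both genotypes. Its difference was 0.21 (95% CI -1.14 to 1.56, limma, adjusted p = 0.977), the widest interval of the 7. Lss, the lanosterol synthase, ranged from 7.41 to 8.80 in Floxed livers (median 7.72) and from 7.10 to 9.12 in LKO livers (median 8.04), a difference of 0.22 (95% CI -0.48 to 0.93, limma, adjusted p = 0.958). Cyp51, the lanosterol demethylase, ranged from 7.73 to 9.02 in Floxed livers (median 8.10) and from 7.11 to 8.89 in LKO livers (median 8.18), a difference of -0.06 (95% CI -0.67 to 0.55, limma, adjusted p = 0.986). In these 3 genes LKO 2 was again the lowest liver.

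**Figure D1:**
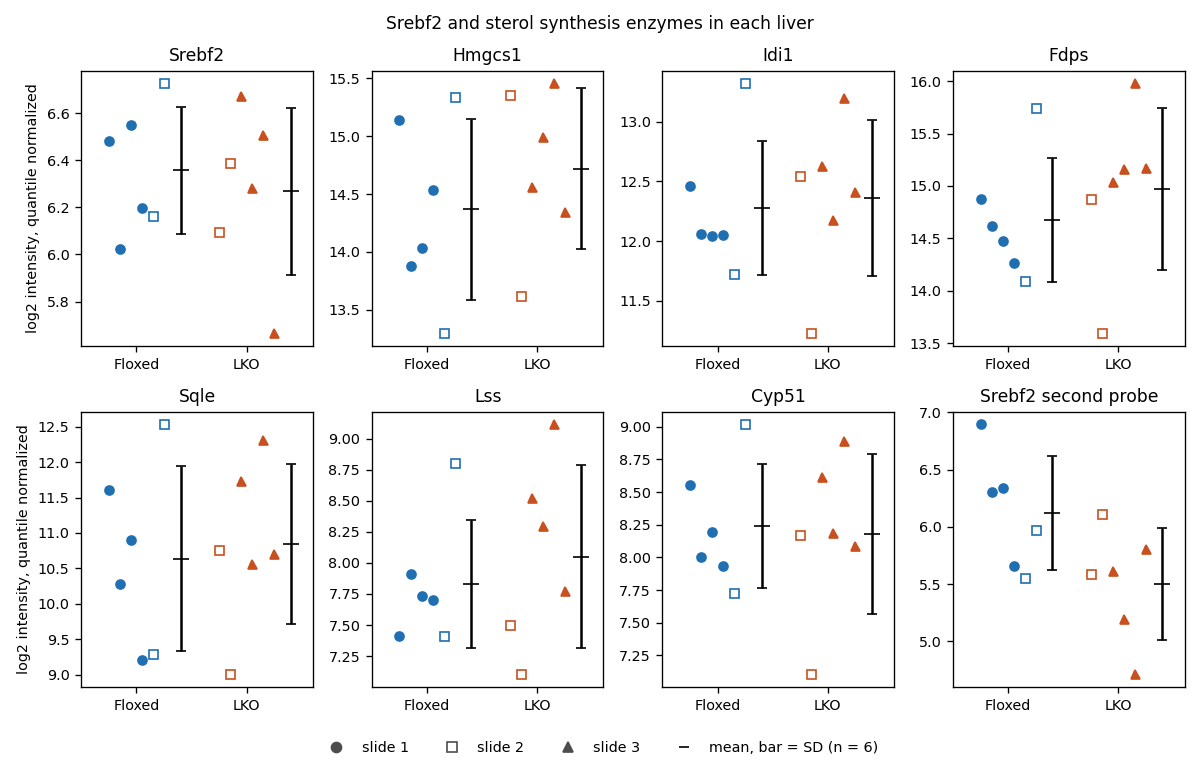
Each panel plots the log2 intensity (vertical axis) of a gene in the 6 Floxed and 6 LKO livers, 1 point per mouse, with the marker giving the slide and the bar giving mean and SD (n = 6). The groups overlap in every panel. Sqle spans from 9.00 to 12.53, the widest range, and the second Srebf2 probe differs from the first.

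Several of these differences had the opposite sign on slide 2, the slide that holds LKO 2 and Floxed 6. Within it, 2 LKO against 2 Floxed livers, the differences were -0.20 for Srebf2, 0.17 for Hmgcs1, -0.64 for Idi1, -0.68 for Fdps, -1.03 for Sqle, -0.81 for Lss and -0.73 for Cyp51. Fitting slide as a fixed block gave the same differences by design. Slides 1 and 3 each held a single genotype, so that fit takes the difference from slide 2 alone and is no separate check. Slide as a random block kept the signs of the 12-mouse fit, with 0.15 for Idi1, 0.38 for Fdps, 0.32 for Sqle and 0.31 for Lss. In each of these fits 0 of 7 genes were called. When LKO mice 1 and 2, whose Phgdh values overlapped with Floxed, were left out together, the differences were -0.07 for Srebf2, 0.47 for Hmgcs1, 0.33 for Idi1, 0.66 for Fdps, 0.69 for Sqle, 0.60 for Lss and 0.21 for Cyp51. Again 0 of 7 were called. This alternative was added after the values were seen, and it leaves out both LKO mice of slide 2.

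The other genes of the pathway gave no call either. Of 16 further enzymes of mevalonate and sterol synthesis, 0 were called, against 8.35% of all genes. They were higher in 13 and lower in 3 cases, with a median difference of 0.12, while 8258 of all genes were higher and 8658 lower. Most of the 16 varied together over the mice, as given below, so their directions are not independent. Fdft1, the squalene synthase, differed by 0.17 (95% CI -0.40 to 0.75), and Dhcr7, the last enzyme before cholesterol, by 0.21 (95% CI -0.44 to 0.87). On slide 2 alone the differences were -0.54 for Fdft1 and -0.19 for Dhcr7. Without Floxed mouse 1, 1 of the 16 was called, Lbr, a sterol reductase of the nuclear envelope, at -0.20 (SE 0.09, limma, adjusted p = 0.649).

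Of 10 measured Srebp2 targets outside the synthesis pathway, 0 were called, against 8.35% of all genes, and 7 were higher and 3 lower. Rdh11, a retinol dehydrogenase, differed by 0.34 (95% CI -0.38 to 1.07), and Stard4, a cholesterol carrier, by -0.23 (95% CI -0.61 to 0.14). Another target on the list, Npc1l1, was not well above background on every array.

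Of 11 measured genes of Srebp processing and sterol sensing, 1 was called, near the share of 8.35% of all genes. Rnf145, a ubiquitin ligase of the endoplasmic reticulum, ranged from 6.91 to 7.38 in Floxed and from 6.37 to 7.07 in LKO livers and differed by -0.39 (exact permutation p = 0.0346, limma adjusted p = 0.437). Insig1, itself induced by Srebp2, differed by -0.04 (95% CI -0.25 to 0.16). Of 14 genes of the branches that use farnesyl diphosphate for prenylation, dolichol or ubiquinone, 1 was called, again near 8.35%. It was Pggt1b, a subunit of a prenyltransferase, at -0.28 (exact permutation p = 0.0455, limma adjusted p = 0.564). Scaling each array to its 75th percentile left Pggt1b uncalled, at -0.20, and it kept its call in 5 of 12 fits that left out 1 mouse. With slide as a block neither Rnf145 (-0.48) nor Pggt1b (-0.15) was called. Of 15 genes of the LXR program and of cholesterol efflux and storage, 0 were called, against 8.35% of all genes. Srebf1, which encodes the relative of Srebp2 that drives fatty acid synthesis, differed by 0.07 (95% CI -0.33 to 0.47). All 14 measured genes of its fatty acid program, including Srebf1, were higher in LKO livers, with a median difference of 0.25. However, 0 of 14 were called, against 8.35% of all genes. Many of the 14 varied together over the mice, as given below, so their directions are not independent. On slide 2 their mean deviation from each gene's 12-mouse mean was -0.46 in Floxed 5 and 0.78 in Floxed 6. It was -1.5e-05 in LKO 1 and -0.90 in LKO 2.

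**Figure D2:**
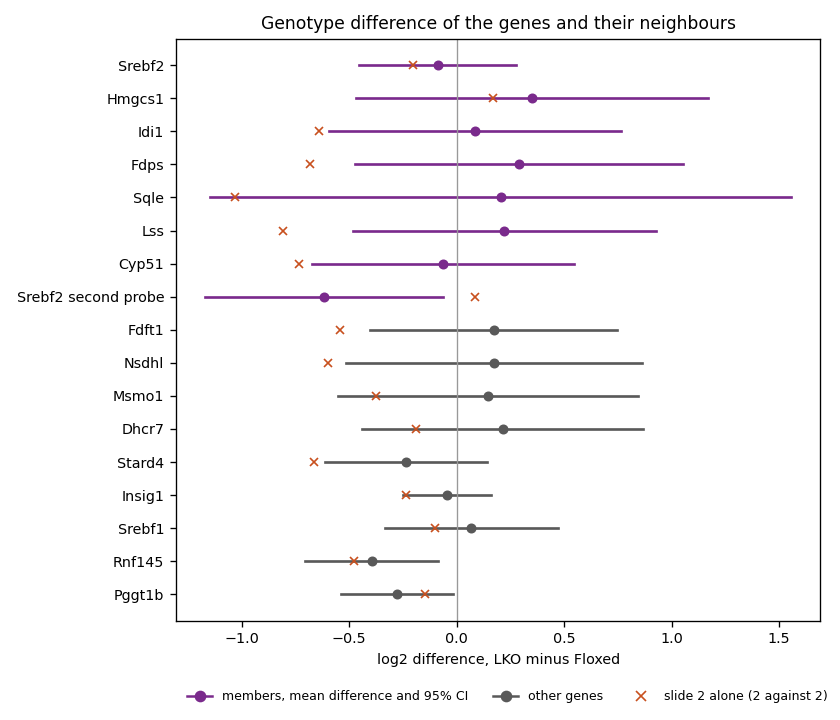
Points give the log2 difference of LKO minus Floxed livers and lines its 95% CI from limma over 12 mice, for the 7 genes and the second Srebf2 probe (purple) and for named genes around them (grey), with crosses for slide 2 alone. All 7 intervals of the genes include 0, and for Idi1, Fdps, Lss and Cyp51 the cross lies below the interval.

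While no genotype difference was detected in the enzymes, they varied strongly from mouse to mouse. From the lowest to the highest of 12 livers, Sqle spanned 11.6-fold, Fdps 5.22-fold, Hmgcs1 4.48-fold, Idi1 4.26-fold, Lss 4.03-fold and Cyp51 3.77-fold. Srebf2, by the probe that represents it, spanned 2.09-fold. Ranked among all tested genes by their SD within genotype, Sqle stood at the 99.8th percentile, Hmgcs1 at the 98.4th, Fdps at the 98.0th, Lss at the 97.2nd, Idi1 at the 96.8th and Cyp51 at the 95.2nd. Srebf2 stood at the 74.6th. The enzymes thus belonged to the genes that differed most between livers of the same genotype. The first Srebf2 probe varied less, whereas the second spanned 4.54-fold, within the range of the enzymes.

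The livers at the extremes were shared. Floxed 6, LKO 3 and LKO 5 had all 6 enzymes above each enzyme's own 12-mouse mean. Floxed 2, Floxed 4, Floxed 5 and LKO 2 had 0 of 6 above it. Averaged over the 6 enzymes, the deviation from that mean was 1.06 in LKO 5 and 1.03 in Floxed 6, and -1.15 in LKO 2 and -0.84 in Floxed 5. The other 8 livers lay between -0.48 and 0.42. By genotype it was -0.09 ± 0.65 in Floxed and 0.09 ± 0.72 in LKO livers (SD, n = 6 each), a gap smaller than the spread within either genotype.

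The size of this variation shows in livers of equal genotype. Floxed 6 exceeded Floxed 5, on the same slide, 9.46-fold in Sqle, 4.12-fold in Hmgcs1, 3.15-fold in Fdps, 3.01-fold in Idi1, 2.62-fold in Lss and 2.45-fold in Cyp51. The same pair differed 1.48-fold in Srebf2. LKO 5 exceeded LKO 2, on different slides, 9.93-fold in Sqle, 5.22-fold in Fdps and 1.09-fold in Srebf2. These pairs were picked for their values and are a description. By slide, the mean of the enzymes ran from -0.48 to 0.25 on slide 1, from -1.15 to 1.03 on slide 2 and from -0.02 to 1.06 on slide 3, and the part of slide was not tested.

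**Figure D3:**
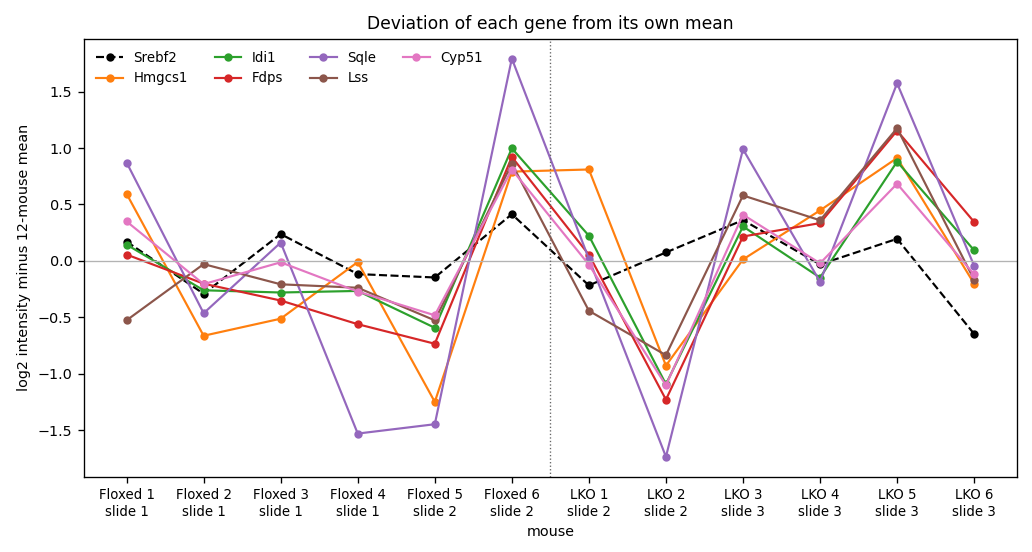
The log2 intensity of each gene minus its own mean over 12 mice (vertical axis) is drawn for each mouse (horizontal axis, slide given below), with Srebf2 dashed and the dotted line between genotypes. The 6 enzymes are high together in Floxed 6 and LKO 5 and low together in Floxed 5 and LKO 2, with Sqle showing the largest swings.

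The enzymes therefore rose and fell together across mice, which was tested for the 21 pairs of genes without use of genotype. Over the 12 mice, Pearson r of the 15 pairs of enzymes ran from 0.58 to 0.95 with a median of 0.83. Of these, 14 passed at a Benjamini-Hochberg adjusted p below 0.05 over the 21 pairs (two-sided permutation tests with 100000 resamples). The exception was Hmgcs1 with Lss (r = 0.58, rho = 0.54, adjusted permutation p = 0.0722). The closest pairs were Idi1 with Cyp51 (r = 0.95, rho = 0.85), Idi1 with Fdps (r = 0.95, rho = 0.87) and Sqle with Cyp51 (r = 0.95, rho = 0.97). By Spearman's rho, which ran from 0.54 to 0.97, 14 of the 15 passed too.

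The correlations of the enzymes were also positive with slide means removed and within each genotype. With slide means removed, r ran from 0.52 to 0.97 among the enzymes. Within the 6 Floxed mice it ran from 0.52 to 0.98, and within the 6 LKO mice from 0.62 to 0.99. Not every pair had an unadjusted exact permutation p below 0.05 there. The p ran from 0.00278 to 0.315 in Floxed and from 0.00139 to 0.188 in LKO mice, highest for Hmgcs1 with Lss in both. Leaving out the 2 mice farthest from the median of one gene of the pair gave 0.38 to 0.95, with a median of 0.68 against 0.83 over all mice. Leaving out extreme values narrows the range, which tends to lower r by itself. How far the correlations rest on the extreme livers was therefore not tested.

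Srebf2, by the probe that represents it, followed the enzymes less closely. Its r with the 6 enzymes ran from 0.22 (Fdps) to 0.51 (Sqle), and 0 of 6 pairs passed. By rho, 2 of 6 passed, Cyp51 (rho = 0.71) and Sqle (rho = 0.64). Within Floxed mice r with the enzymes was 0.52 to 0.85, and within LKO mice 0.00 to 0.46, and the difference between genotypes was not tested. LKO 6, with the lowest Srebf2 and enzymes near their means, and LKO 2, with the lowest enzymes and Srebf2 near its mean, departed most visibly from a common course. The first Srebf2 probe had an r of 0.42 with the mean of the enzymes and the second probe -0.30. Their r with each other was 0.05. By mean level the first probe stood at the 25.5th percentile of tested genes and the second at the 20.5th of fitted probes. The enzymes stood between the 44.2nd (Lss) and the 95.2nd (Fdps). How well either probe reads Srebf2 mRNA was not tested, so the lower r may belong to the probe.

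**Figure D4:**
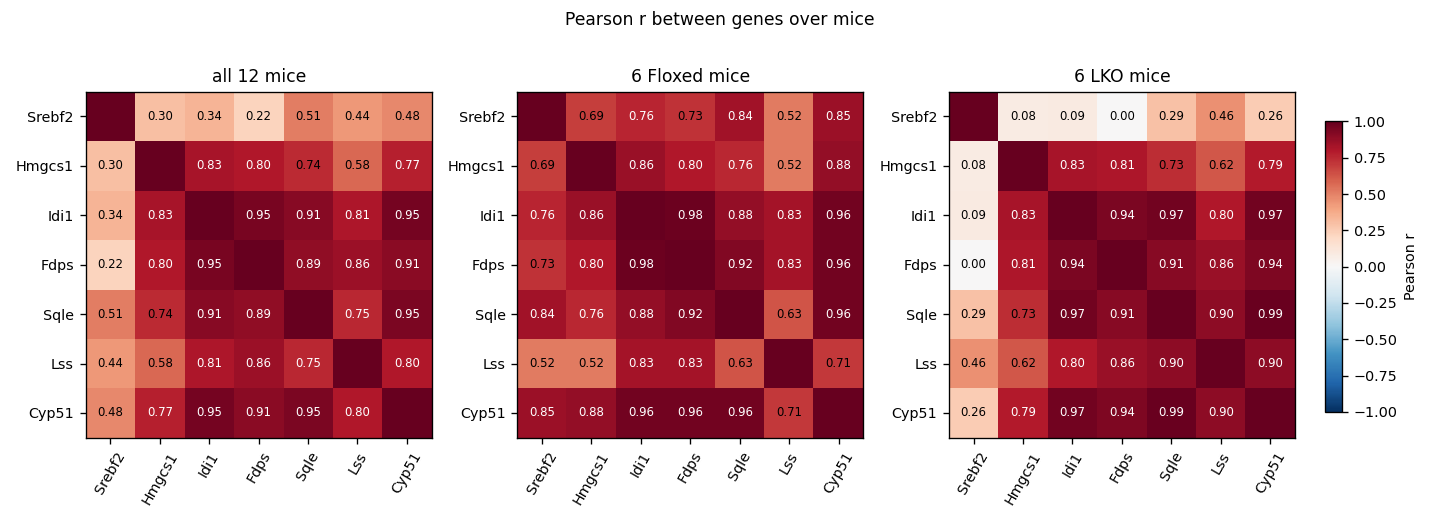
Cells give Pearson r between each pair of the 7 genes (both axes) over all 12 mice, over the 6 Floxed and over the 6 LKO mice, with color from blue (-1) to red (1). Among the enzymes r is 0.52 or higher in every panel, while Srebf2 ranges from 0.00 to 0.85.

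Most of the pathway shared this course. Each of the other 16907 tested genes whose values varied was ranked by its r with the mean deviation of the 6 enzymes over the 12 mice, as a description. The 8 most alike included Fdft1 (r = 0.97), Nsdhl (0.97) and Msmo1 (0.95), enzymes of squalene and sterol synthesis, and Rdh11 (0.96), a retinol dehydrogenase known as an Srebp target. The other 4 were probes without a gene symbol. Of these, 3 had an r of 0.997 or higher with Fdps, and whether they read the same transcript was not tested.

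Of the 16 other sterol enzymes, 14 stood among the 200 most alike genes, a limit set after the values were seen and holding 1.18% of the ranked genes (r of 0.73 or more). They included the mevalonate pathway kinase Pmvk (r = 0.90) and decarboxylase Mvd (0.90), and the sterol reductases Hsd17b7 (0.94), Dhcr7 (0.92) and Tm7sf2 (0.91). The exceptions were Acat2, which makes acetoacetyl-CoA (r = -0.20), and Lbr (r = 0.05). The median r of this list was 0.90, against -0.02 over all tested genes.

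Outside sterol synthesis the likeness was looser. The 10 Srebp2 targets had a median r of 0.66, with 4 among the 200, including Rdh11, Tmem97 (0.91) and Fads2 (0.81), while Npc1 stood at 0.22. The 14 fatty acid genes had a median r of 0.71 and 7 among the 200, led by Acss2 (0.92), which makes acetyl-CoA from acetate, and Acacb (0.84), an acetyl-CoA carboxylase, while Srebf1 itself stood at 0.13. In the processing list the median was 0.33, and Scap, the escort of the Srebps, was the one gene of 11 among the 200 (0.78). Genes of the branches after farnesyl diphosphate had a median of -0.04 and 0 of 14 among the 200, and the LXR and efflux genes 0.08 and 1 of 15, Pltp (0.80), the phospholipid transfer protein of plasma. Abcg8, part of the canalicular sterol exporter, stood at -0.67 and its partner Abcg5 at -0.47.

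**Figure D5:**
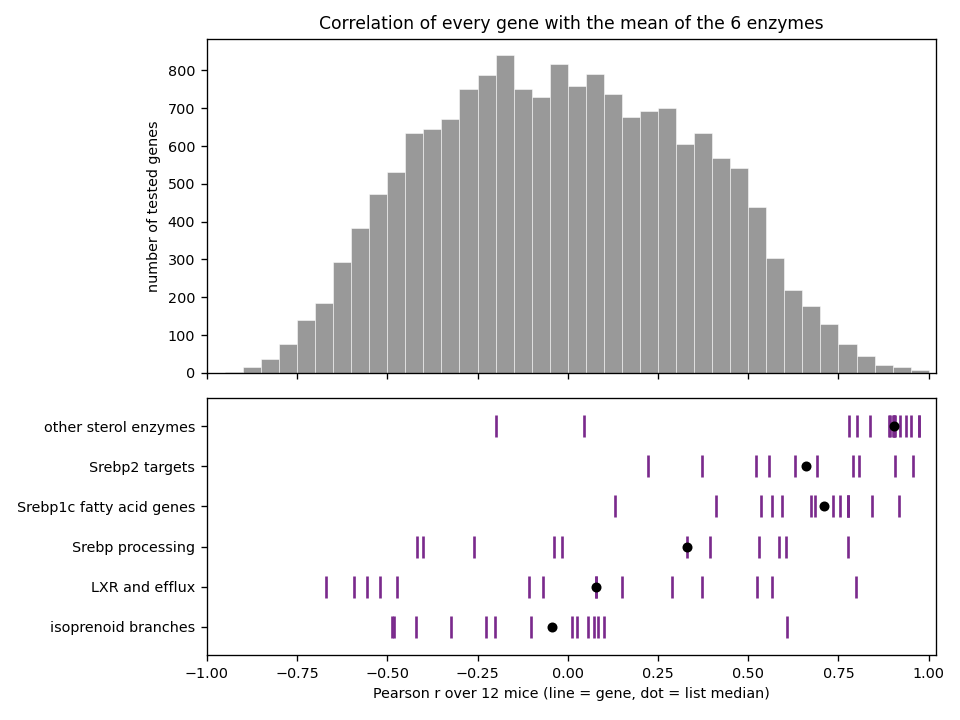
The upper panel counts the tested genes (vertical axis) by Pearson r with the mean of the 6 enzymes over 12 mice (horizontal axis), and the lower panel marks each gene of 6 lists by a line and each list's median by a dot. The other sterol enzymes gather at the right edge with a median of 0.90, the isoprenoid branches around -0.04.

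Other measures were set beside the mean of the enzymes, again as descriptions over 12 mice that share arrays. The mean deviation of the other sterol enzymes had an r of 0.99 with it and that of the Srebp2 targets 0.89. The fatty acid genes had 0.76, falling to 0.51 without the 2 mice farthest from the median. The number of probes above background had 0.09 and the 75th percentile of intensity -0.28. Among cell type marker lists, the stellate cell markers (12 of 12 measured) had the highest r, 0.55, with mean deviations from -0.17 to 0.26 in Floxed and from -0.35 to 0.28 in LKO livers. The hepatocyte markers had -0.46, with deviations from -0.06 to 0.09 in Floxed and -0.14 to 0.01 in LKO livers. Macrophage (10 of 12 measured), lymphocyte (7 of 12), endothelial (12 of 12), cholangiocyte (4 of 10), adipocyte (6 of 10) and pancreas acinar markers (5 of 12) lay between -0.27 and 0.13. Within genotypes some of these values were larger and opposite in sign. The pancreas acinar markers had -0.80 in Floxed and 0.83 in LKO mice, and the lymphocyte markers 0.61 and -0.20. The adipocyte markers had -0.43 and -0.20. The part of any of these in the variation of the enzymes was not tested.

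The hour of dissection and the feeding state of each mouse are not given in the sources used here. The clock genes that peak with Bmal1 (3 measured of 5) had an r of -0.49 with the mean of the enzymes, and those of the Per and Rev-erb phase (7 measured of 9) 0.20. Between genotypes, 2 of these 7 were called, against 8.35% of all genes, Per1 at -1.15 (exact permutation p = 0.00433, limma adjusted p = 0.257) and Hlf at -0.28 (exact permutation p = 0.0281, limma adjusted p = 0.490), and their part in the values above was not tested. Hlf lost its call without Floxed 1, Floxed 5 or LKO 5, without LKO arrays 1 and 2 together (-0.27) and with slide as a fixed block (-0.43), and Per1 kept it in 12 of 12 fits that left out 1 mouse. Single genes were called in the marker lists, Pecam1 of endothelium at 0.70, Cftr of bile ducts at -0.83 and Cel of pancreas at 0.54, with adjusted p-values of 0.273, 0.592 and 0.273 (limma). On slide 2 alone their differences were 0.04, -1.49 and 0.27. In the whole endothelial list 5 of 12 markers were higher and 7 lower.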

How the data were processed

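Total RNA from 12 livers, 6 Floxed and 6 LKO, was labeled with Cy3 and hybridized to mouse 4x44K arrays, 1 mouse per array. The RNA kit differs between the study's methods and the labels. The authors deposited the processed intensity of every spot, from which Agilent Feature Extraction (version 10.7.1.1 per the file headers, 9.5.1.1 per the submitters' processing notes) had removed background and spatial trends, and a table of quantile-normalized intensity per probe, which was used as an alternative.

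From the deposited intensity, control spots were left out, values were log2-transformed and quantile-normalized over 12 arrays, and spots marked as outliers (0.298%) were treated as missing. Spots of a probe were averaged. Kept were 20404 of 39429 probes, those marked well above background on each of the 12 arrays, this mark standing in for the detection p-value of the authors' methods, and the brightest probe represented each gene, giving 16916 genes. A probe on several spots needed the mark on at least 0.5 of them. Genes were named through RefSeq accessions (GRCm38.p6), which matched for 94.3% of 28389 probes with one. 0 spots were saturated.

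Genotypes were compared with limma (version 3.58.1, R 4.3.3) with no covariate. Calls used an unadjusted two-sided p below 0.05, with Benjamini-Hochberg values over all genes. The fit was tested on simulated data of 16895 genes, where it called 99.5% of 200 genes changed by 1.5 (log2) and 5.5% of the unchanged. The simulated noise was independent and had no slide effect, and the changed genes were drawn at random, whatever their spread. These shares therefore need not hold for the real arrays, or for the enzymes, which were among the most variable genes. How often the fit would call differences as small as those of the 7 genes, at most 0.35 in size, was not tested. Alternatives covered scaling, background, filters, probe choice, tests, slide, replicate block and leaving out mice. Named were the 7 genes with every probe, Phgdh, fixed genes (Insig1, Dhcr7, Fdft1, Stard4 and Srebf1, others of that set being not reported here), list genes with an unadjusted p below 0.05 and the 8 genes most alike in course over the mice, and, by rank, others of the lists. The genes and lists were chosen with earlier results of these data known.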

Additional observations from a re-analysis of the deposited data

Results flagged for a closer look

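A liver was taken to stand apart where its gap to the nearest value, as a share of its group's range, passed Dixon's 95% critical value. Of 52 groups examined (26 genes or measures in each genotype), 1 met it, and chance gives about 1 in 20, or 2.6. The Lss level of Floxed 6 was 8.80, while the other 5 Floxed livers lay between 7.41 and 7.91. The same liver was also the highest Floxed liver for the other 5 enzymes and for Srebf2.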

How the results depend on the processing

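No member gene was called under any alternative except Srebf2 when the probes of a gene were averaged (1 of 7 called, at -0.35), and 0 of 16 other sterol enzymes were called except without Floxed replicate 1 (1 called). Signs of the members were less stable. With slide as a fixed block and on slide 2 alone the differences became -0.68 for Fdps, -0.64 for Idi1, -0.81 for Lss and -1.03 for Sqle, and the second Srebf2 probe became 0.088. Both settings take the difference from slide 2, so they are the same by design. Normexp background correction turned Srebf2 to 0.035, and leaving out LKO arrays 1 and 2 turned Cyp51 to 0.21. The second Srebf2 probe missed the criterion under scaling to the 75th percentile (-0.53) and in the methods' t-test. The cause was not tested. Leaving out each mouse in turn gave -0.17 to 0.032 for Srebf2 (positive only without LKO 6), 0.14 to 0.57 for Hmgcs1, -0.081 to 0.31 for Idi1 (negative without Floxed 5 or LKO 5), 0.09 to 0.57 for Fdps, -0.089 to 0.59 for Sqle (negative without Floxed 4, Floxed 5 or LKO 5), 0.01 to 0.42 for Lss, -0.21 to 0.15 for Cyp51 (positive without Floxed 1, Floxed 6 or LKO 2) and -0.74 to -0.46 for the second Srebf2 probe. Genes called numbered 1103 to 1837 and other sterol enzymes called 0 to 1 in those fits. The count of genes called was 2791 without a filter on dim probes, 0 after adjustment, 88 with a log2 fold change of at least 1 as well, 317 with slide as a fixed block, 512 on slide 2 alone and 2172 without LKO arrays 1 and 2. The median r over the 21 pairs stayed between 0.79 and 0.82, and between 0.74 and 0.84 leaving out each mouse. The deviations of same-numbered Floxed and LKO mice had an r from -0.24 to 0.32, over 0.1 in 3 of 6 pairs. They were not compared with those of differently numbered mice, so a pairing is neither shown nor excluded. The numbers were not taken to pair the mice, although the titles give same-numbered mice consecutive animal numbers. With the replicate block 1428 genes, 0 members and 0 other sterol enzymes were called, and Pggt1b missed the criterion. LKO was below its same-numbered Floxed mouse in 6 of 6 cases for Phgdh and for the second Srebf2 probe (limma p with the block = 0.00326 and 0.00451, exact paired permutation p = 0.0312 for each, the smallest that 6 pairs allow, a test added after the values were seen).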
